A study of Caenorhabditis elegans with 2 samples.

Results

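The sites described here are the 366 peaks, of 1092 in the conservative peak list of the study, whose summit lay outside every promoter window and away from small noncoding RNA genes. Promoter windows reached 1000 bp before and 500 bp past each protein-coding 5′ end, and away meant more than 200 bp from any annotated tRNA, snoRNA, snRNA or rRNA gene. They came from ChIP-seq (chromatin immunoprecipitation and sequencing) of ZTF-25 in whole Caenorhabditis elegans. Both samples were young adults of strain RW12287 at 63 hours, with st12287[ztf-25::TY1::EGFP::3xFLAG] V inserted by CRISPR, grown from larvae starved after bleaching, and an anti-GFP antibody was used. They were the labels' biological replicates 1 and 2 of 1 group, so no condition was compared with another, and no untagged sample was analysed here. The files hold peaks and no read counts, so the depth of the libraries is unknown. By the position of the summit, 109 sites were distal intergenic, 94 intronic, 88 at 3′ ends (33 in a 3′ UTR and 55 within 500 bp past a gene's end) and 75 exonic (74 in coding exons and 1 in a 5′ UTR). For comparison, 358 peaks of the list were in promoter windows and away from small RNA genes, and 294 were at tRNA genes.

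ZTF-25 is named as a zinc finger putative transcription factor, a kind of protein that contacts DNA through folds held by zinc. The tRNA genes, which RNA polymerase III transcribes, carry their promoter inside the transcribed part as an A box followed by a B box. The factor TFIIIC binds these boxes, and the transcripts end at a run of T. Relics and relatives of tRNA genes are spread through animal genomes, in introns and between genes, where many have no annotation. Other repeats hold heat shock elements, alternating GAA and TTC blocks that the heat shock factor HSF-1 recognises.

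Many of the strongest sites were copies of a few sequences. Windows of 201 bases around the summits were joined when they shared a word of 16 letters on either strand, which placed 59 of the 366 sites (16.1%) in 7 families of 4 or more, named A to G here. No 2 sites of a family lay within 200 bp of each other. The families and their shared words were found in these same peaks. Their sizes, signals and shares of genome copies with a peak are therefore descriptions. Below, sequence is RefSeq's for WBcel235, the same assembly as ce11, and sites are named by their gene: the host for introns and exons, the gene that ends there for 3′ ends, and the nearest 5′ end otherwise.

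Family A had 17 members, 13 distal and 4 intronic, with the A box pattern in 16, the B box pattern in 12 and both in the order of a tRNA gene in 11. The 3 shown are its strongest members and have both, whereas the next, near sor-3, does not have the pair. Capitals mark the A box pattern TGGCNNANNGG and the B box pattern GTTCNANNC, and a T-rich stretch follows.
nhr-277 site (chrIV:2740179-2740298, plus strand): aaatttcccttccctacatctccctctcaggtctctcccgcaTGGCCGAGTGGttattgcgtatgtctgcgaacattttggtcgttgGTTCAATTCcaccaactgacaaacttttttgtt
aagr-2 site (chrII:4928480-4928599, minus strand): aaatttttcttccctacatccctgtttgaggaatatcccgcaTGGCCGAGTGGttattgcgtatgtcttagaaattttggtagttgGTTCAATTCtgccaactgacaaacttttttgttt
srt-52 site (chrV:53441-53560, plus strand): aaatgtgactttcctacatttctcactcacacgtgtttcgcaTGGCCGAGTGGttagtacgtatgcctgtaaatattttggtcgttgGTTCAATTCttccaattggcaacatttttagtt
The 16-letter word shared by 15 of its members, CATGGCCGAGTGGTTA, occurred 53 times in the nuclear genome, none of them inside an annotated tRNA, snoRNA, snRNA or rRNA gene. A conservative peak summit lay within 150 bp of 17 copies (32.1%, exact 95% interval 19.9 to 46.3%), 15 of the peaks being sites described here and 2 promoter peaks.

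Family F had 4 members, all with the B box pattern and 3 with the pair. Shown are 2 of those with the pair, at ckr-2 and nipa-1, and 2 of the 45 sites outside the families that held the B box pattern. The strongest member, in an intron of Y69A2AR.31 (signal 162), does not have the pair and is not shown. The unc-104 and nipa-1 sites lie within 200 bp of tRNA pseudogenes in the RefSeq annotation, and are shown for that reason. F09E5.7 is shown as one of the 5 strongest sites at 3′ ends.
ckr-2 site (chrIII:2031309-2031428, minus strand): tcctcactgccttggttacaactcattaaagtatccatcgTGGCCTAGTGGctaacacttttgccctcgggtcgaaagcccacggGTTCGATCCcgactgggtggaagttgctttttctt
nipa-1 site (chrIII:3112129-3112248, minus strand): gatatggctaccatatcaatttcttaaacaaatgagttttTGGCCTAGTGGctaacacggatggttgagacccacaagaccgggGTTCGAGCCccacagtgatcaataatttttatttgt
unc-104 site (chrII:7001591-7001691, plus strand): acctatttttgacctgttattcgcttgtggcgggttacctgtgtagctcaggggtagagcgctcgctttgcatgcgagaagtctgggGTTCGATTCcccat
F09E5.7 site (chrII:5353814-5353914, minus strand): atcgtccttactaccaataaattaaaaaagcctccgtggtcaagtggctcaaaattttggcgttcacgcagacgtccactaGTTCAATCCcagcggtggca
Only 3 of the 25 genome copies of the family F word TGGCCTAGTGGCTAAC had a conservative peak (12%, interval 2.55 to 31.2%).

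Family D had 9 members, 5 intronic, 3 distal and 1 at a 3′ end, with B-box-like letters in 8 and the full A and B pair in 2. Both members with the pair are shown, with the boxes in capitals.
ent-3 site (chrV:14237561-14237681, plus strand): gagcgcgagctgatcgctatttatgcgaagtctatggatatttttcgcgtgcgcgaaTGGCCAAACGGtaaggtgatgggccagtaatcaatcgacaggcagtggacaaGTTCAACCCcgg
K08C7.1 site (chrIV:10658445-10658565, plus strand): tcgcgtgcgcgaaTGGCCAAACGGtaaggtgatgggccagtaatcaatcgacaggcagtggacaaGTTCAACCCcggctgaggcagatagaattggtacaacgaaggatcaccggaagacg
Its word TACAACGAAGGATCAC had 19 genome copies, 9 of them with a conservative peak (47.4%, interval 24.4 to 71.1%), and all 9 peaks were sites described here.

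Families B and E had no A box in any member. Capitals mark the shared word in the strongest member of each on the strand shown and in 1 further member.
C46C2.7 site (chrIV:9196343-9196463, plus strand): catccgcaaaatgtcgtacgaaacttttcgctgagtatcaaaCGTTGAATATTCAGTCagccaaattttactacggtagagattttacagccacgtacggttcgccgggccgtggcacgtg
K07D4.2 site (chrII:4047967-4048087, minus strand): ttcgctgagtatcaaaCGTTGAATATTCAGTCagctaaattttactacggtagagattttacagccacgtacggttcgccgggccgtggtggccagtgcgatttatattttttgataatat
T26G10.1 site (chrIII:9408419-9408539, plus strand): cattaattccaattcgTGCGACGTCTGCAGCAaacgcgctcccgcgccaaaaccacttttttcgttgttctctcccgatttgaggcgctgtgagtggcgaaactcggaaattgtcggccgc
R07H5.16 site (chrIV:11200812-11200932, minus strand): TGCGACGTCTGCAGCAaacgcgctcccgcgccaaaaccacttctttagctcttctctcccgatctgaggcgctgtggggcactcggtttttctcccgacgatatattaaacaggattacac
The family B word CGTTGAATATTCAGTC had 18 genome copies, 10 with a conservative peak (55.6%, interval 30.8 to 78.5%). For the family E word TGCGACGTCTGCAGCA, 7 of 23 copies had one (30.4%, interval 13.2 to 52.9%). All 5 sites of family E were distal, whereas the 10 of family B were 5 distal, 3 at 3′ ends and 2 intronic.

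Families C and G held units repeated in tandem in the members shown. All 10 members of family C (7 distal, 3 intronic) held heat shock elements, here 3 or more alternating TTC and GAA blocks with 2 bases between them. Capitals mark every block that has such a neighbour, so some marked runs have only 2 blocks. For family G, with 4 members, the shared word is in capitals.
Y41E3.13 site (chrIV:15059271-15059391, plus strand): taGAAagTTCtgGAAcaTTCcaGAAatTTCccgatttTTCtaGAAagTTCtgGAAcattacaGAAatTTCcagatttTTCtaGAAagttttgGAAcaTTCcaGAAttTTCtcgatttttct
srv-14 site (chrIV:15896012-15896132, plus strand): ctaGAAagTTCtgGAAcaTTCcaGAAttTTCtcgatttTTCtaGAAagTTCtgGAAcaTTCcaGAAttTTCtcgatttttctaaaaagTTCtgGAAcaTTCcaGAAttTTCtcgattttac
T02H6.3 site (chrII:695248-695368, minus strand): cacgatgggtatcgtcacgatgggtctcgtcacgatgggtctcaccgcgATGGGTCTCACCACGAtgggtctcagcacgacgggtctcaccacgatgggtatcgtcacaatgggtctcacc
Over all classes such elements were at 11 of 366 sites (3.01%, interval 1.51 to 5.31%), the 10 of family C and the zig-11 site. The share was 2.23% in promoter peaks (interval 0.97 to 4.36%), 1.78% in windows 500 bp to either side and 1.52% in genome tiles of the same length. The family C word TCCAGAATTTTCTCGA had 405 genome copies, of which 37 (9.14%, interval 6.51 to 12.4%) lay within 150 bp of 1 of 12 conservative summits, 10 of family C and 2 in promoter windows. That interval counts copies as if independent, although several lie at 1 summit, so it is too narrow. The family G word ATGGGTCTCACCACGA had 1438 copies, 35 of them (2.43%) near such a summit. Those summits were of 4 sites described here and 2 promoter peaks. The 101 bases at the family C summits were 98.8% soft-masked, the genome file's mark for repeats, on average, against 23% over all 366 sites.

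**Figure D1:**
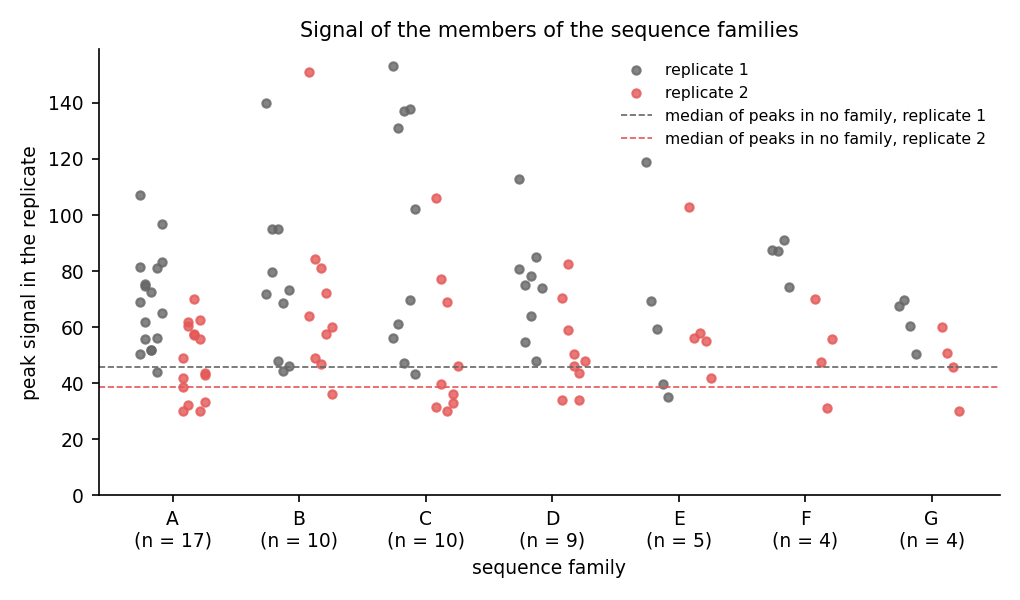
Peak signal of every member of the 7 sequence families in each replicate's own ranked list, with 1 point per site and replicate. Dashed lines are the medians of the 307 sites in no family, 45.7 in replicate 1 and 38.6 in replicate 2, and the family medians lie above them in both replicates.

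Family members stood out by signal, the height that the authors' peak calling gave each peak, on a scale that is not stated. With both replicates together, the median was 118 (range 70.6 to 294) over the 59 family members and 83.6 (2.78 to 295) over the other 307 sites. In the ranked list of replicate 1 the medians were 71.8 and 45.7, and in that of replicate 2 they were 50.5 and 38.6, so the order was the same in each library. The 2 lists were made separately, and values are not compared between them. Of the family members, 43 of 59 (72.9%, interval 59.7 to 83.6%) overlapped a peak of replicate 1's own thresholded list, and 24 of 59 (40.7%, interval 28.1 to 54.3%) one of replicate 2's. For the remaining sites these shares were 56 of 307 (18.2%, interval 14.1 to 23%) and 29 of 307 (9.45%, interval 6.42 to 13.3%). Repeated sequence moved with this split: words of 25 letters around the summit occurred more than once in the genome, by their median, at 57.6% of family members and at 14.7% of the others. How the authors placed reads among such copies is not given in the sources used here, and its part in the signal was not tested.

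By family, the median signal ran from 134 in B and 121 in F, through 118 in D, 117 in C and 116 in both A and E, to 107 in G. In family A, the nhr-277 site had a signal of 107 in replicate 1 and 41.9 in replicate 2, the aagr-2 site 74.7 and 60.4, and the srt-52 site 72.7 and 57.4. Each of these 3 was above the median of the sites in no family in both libraries, and all were in the list of replicate 1. In family B, the C46C2.7 site reached 140.0 in replicate 1 and 151 in replicate 2, the highest value of any site in the latter. Family C split into 4 strong sites, at Y41E3.13, Y102A11A.1, fbxa-190 and srv-14, with pooled signals of 207 to 255, 1 more at 141, and 5 sites between 70.6 and 93.9. The Y102A11A.1 site had a signal of 131 in replicate 1 and no ranked peak at its summit in replicate 2.

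The boxes were counted on both strands in the same 201 bases. The A box and, 20 to 80 bases further on the same strand, the B box were found together at 22 of 366 sites (6.01%, interval 3.8 to 8.96%). The pair was at 14 of 109 distal sites (12.8%), 7 of 94 intronic sites (7.45%), 1 of 88 at 3′ ends and 0 of 75 in exons, where the interval reaches 4.8%. This order of the classes rests on the families. Outside them the pair was at 3 of 72 distal sites (4.17%), 3 of 78 intronic sites (3.85%) and 0 of 82 at 3′ ends. Over all sites in no family it was at 6 of 307 (1.95%, interval 0.721 to 4.21%). Beside the sites, 0.41% of windows 500 bp to either side held the pair, as did 0.121% of all 201-base tiles of the genome and 2.51% of promoter peaks. Among annotated tRNA genes, which differ in their boxes, it was 23.9%. Of the 22 sites, 16 were in the families and 6 were not: lips-10, gei-1, cya-1, set-8, piki-1 and cpl-1. The median signal of all 22 sites was 114, against 85 for the 344 sites with no pair. Of the 22, 16 were in the list of replicate 1 and 7 in that of replicate 2. Of the other 344 sites, 83 and 46 were in these lists. Because most of the 22 are family members, this contrast is not separate from that of the families (118 against 83.6).

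Single words differed in their order of classes. The word AGTGGTT, which overlaps the end of the A box in family A, was within 50 bp of the summit at 17 of 109 distal sites (15.6%), 4 of 94 intronic sites, 1 of 88 at 3′ ends and 0 of 75 in exons. Not all of these are A boxes, since 4 of the 5 sites of family E, all distal, held the word and none of them the A box pattern. Outside the families the word was at 2 of 307 sites (0.651%). It was at 2.79% of promoter peaks, 21.8% of tRNA gene peaks, 1.07% of genome tiles and 0.273% of the flanking windows. GGTTCGA, which overlaps the start of the B box, was at 14 of 366 sites (3.83%), against 51% of tRNA gene peaks, 1.96% of promoter peaks, 0.717% of tiles and 1.78% of flanking windows. By class it was at 6.38% of intronic sites, 4.55% at 3′ ends, 2.75% of distal sites and 1.33% in exons. In the lists of replicates 1 and 2 taken alone, it was at 6.98% and 10.8% of the sites. The B box pattern alone was at 19.1% of the sites, and at 14.7% of those in no family, against 5.87% of flanking windows and 7.16% of tiles. Base composition moved with these counts: median GC of the central 101 bases was 47.5% at the sites, 37.6% in the flanking windows and 34.7% in the tiles, and its part was not tested. A match describes the letters in a window and is no evidence of a working promoter.

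Relative to the sequence open to them, the sites were most dense at 3′ ends. Promoter windows and small RNA surroundings left 67.9 Mb, or 67.7% of the nuclear genome, of which 3′ ends made up 8.32%, exons 24.5%, introns 35.6% and distal sequence 31.6%. The sites divided into 24% at 3′ ends (interval 19.8 to 28.8%), 20.5% in exons (16.5 to 25%), 25.7% in introns (21.3 to 30.5%) and 29.8% in distal sequence (25.1 to 34.8%). Per megabase this gave 15.6 sites at 3′ ends, 5.08 in distal sequence, 4.51 in exons and 3.89 in introns. The place of exons depended on the list: in the lists of replicates 1 and 2 taken alone, exons held 9.3% and 4.62% of the sites found by the same rule and introns 22.5% and 30.8%, so that exons were the least dense class. In those lists 3′ ends, with 29.5% and 20%, were still the most dense. Without the family members, an alternative chosen after seeing the data, distal sites were the smallest class, at 23.5%. The intervals cover the counting of peaks only, and no chance model was run.

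Chromosome X was the exception. It held 20% of the open 3′ end sequence but 2 of the 88 sites there, 1.77 per megabase, while the autosomes ranged from 13.8 per megabase on V to 26.6 on III. The 2 sites were past the ends of mdl-1, a bHLH factor of the Mad family (signal 98.1), and of F23G4.1 (83.8), the latter within 200 bp of a tRNA pseudogene. Over all classes, X had 38 sites, or 2.96 per megabase, against 5.11 to 7.34 on the autosomes. It was less poor in distal sites, with 20 of 109 (3.99 per megabase). Promoter peaks were also few on X, 5.03% of them for 17.7% of the genome's length.

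**Figure D2:**
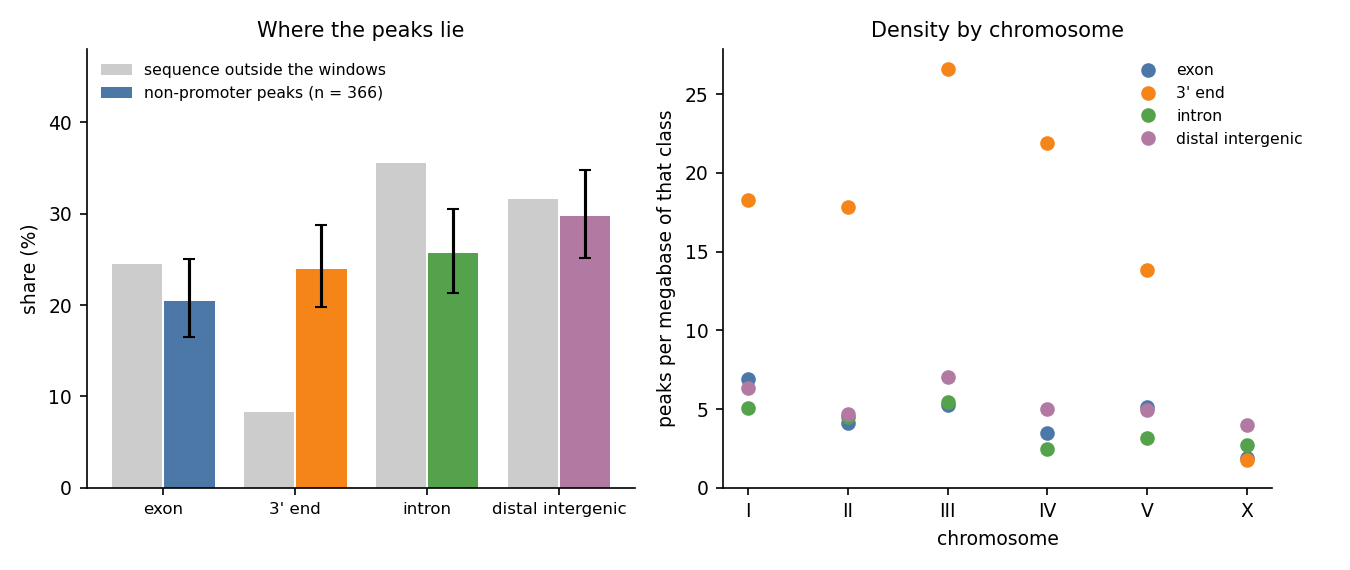
Left, share of the sequence outside promoter windows and small RNA surroundings in each class (grey) and share of the 366 sites in it (coloured, error bars are exact 95% intervals over peaks). Right, sites per megabase of each class on each chromosome: 3′ ends lie highest on all 5 autosomes and, at 1.77, lowest on X.

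The classes also differed in signal and in how often the sites were in each replicate's own thresholded list. Median pooled signal was 93.2 at distal sites, 87.4 at 3′ ends, 84.1 in introns and 80.5 in exons, against 90.8 for promoter peaks and 105 for tRNA gene peaks. The medians in replicate 1 were 54, 49.6, 46.7 and 43.5 for the same 4 classes, and in replicate 2 they were 42.2, 38.8, 39.7 and 38.2. Exons were lowest in both libraries, and the middle classes changed places. Without family members the pooled medians were 87.7, 85.2, 83.5 and 80.5. In replicate 1 they were then 47.7, 48.9, 45.6 and 43.5, with 3′ ends above distal sites, and in replicate 2 they were close together at 38.9, 38.6, 38.8 and 38.2.

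Of the 366 sites, 99 (27%, interval 22.6 to 31.9%) were in replicate 1's own list, 53 (14.5%, interval 11 to 18.5%) in replicate 2's, and 39 (10.7%, interval 7.69 to 14.3%) in both. The same shares over the whole conservative list were 39.9%, 25.1% and 19.5%. By class, replicate 1's list held 36.7% of distal sites (interval 27.7 to 46.5%), 31.8% at 3′ ends (22.3 to 42.6%), 27.7% in introns (18.9 to 37.8%) and 6.67% in exons (2.2 to 14.9%). For replicate 2's list the shares were 24.8% (17 to 34%), 13.6% (7.25 to 22.6%), 13.8% (7.57 to 22.5%) and 1.33% (0.0338 to 7.21%). The exon interval lay below those of the other 3 classes for replicate 1, and for replicate 2 it did so too, though only narrowly for introns and 3′ ends. No test of these differences was run. With family members left out, this separation was largely lost. For replicate 1 the shares were then 18.1% for distal sites (interval 9.98 to 28.9%), 19.2% in introns (11.2 to 29.7%) and 28% at 3′ ends (18.7 to 39.1%), and only the last interval stayed above that of exons, which hold no family member. For replicate 2 they were 12.5% (5.88 to 22.4%), 10.3% (4.53 to 19.2%) and 13.4% (6.89 to 22.7%), and all 3 intervals overlapped that of exons. Across the 341 sites with a ranked peak in both libraries, the 2 signals had a Spearman rho of 0.204, against 0.432 over 1031 peaks of the whole list. Both sets were selected on repeating between the libraries, which restricts their range.

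**Figure D3:**
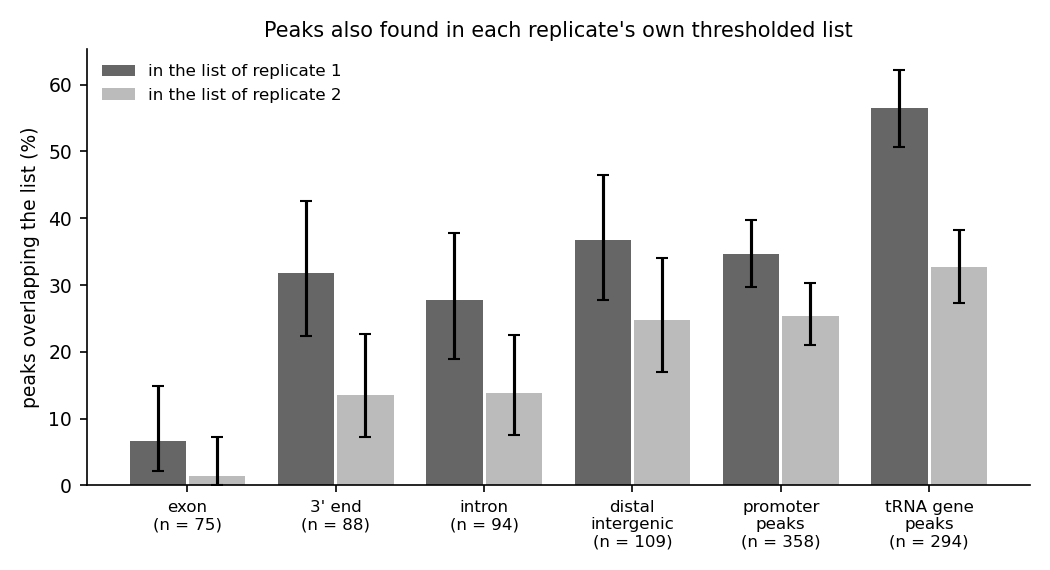
Share of peaks that overlap a peak of each replicate's own thresholded list, by class of site and, at right, for promoter and tRNA gene peaks; error bars are exact 95% intervals over peaks. Exon sites are lowest, at 6.67% and 1.33%, and tRNA gene peaks highest, at 56.5% and 32.7%.

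**Figure D4:**
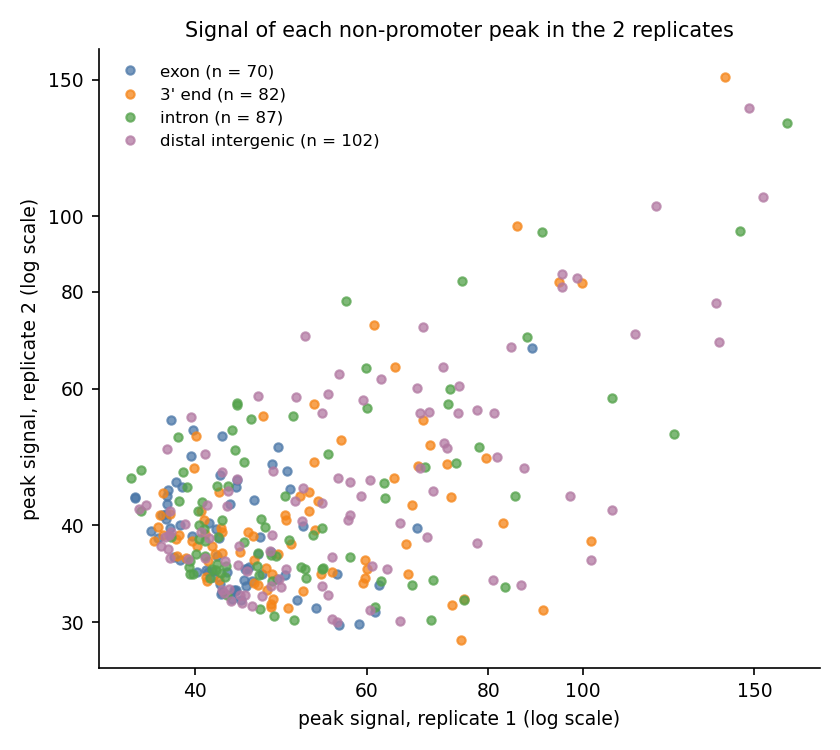
Signal of each of the 341 sites with a ranked peak in both libraries, replicate 1 against replicate 2, on log axes and coloured by class. Most sites lie in a cloud at low values in both, and the few above 80 in both are distal, intronic or at 3′ ends.

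Distal sites lay at a median of 2802 bp from the nearest protein-coding 5′ end, and 66 of the 109 were upstream of it. The strongest was 2880 bp downstream of the 5′ end of K08F11.1, beside a pseudogene, with a signal of 148 in replicate 1 and 138 in replicate 2. It is shown because it belongs to none of the families.
K08F11.1 site (chrIV:4727976-4728076, plus strand): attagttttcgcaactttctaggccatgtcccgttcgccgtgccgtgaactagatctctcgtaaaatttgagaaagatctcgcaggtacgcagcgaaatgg
Next came the family C site near Y41E3.13 (153 and 106), the Y102A11A.1 site given above, the family E site near T26G10.1 (119 and 103) and the family C site near the F-box gene fbxa-190 (137 and 77.3). All 5 were in the list of replicate 1 and 4 of them in that of replicate 2.

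Intronic sites lay in long introns. The introns that held them had a median length of 1432.5 bp, while the median over all annotated introns was 68 bp and, weighted by length, 1055 bp. Of the 92 sites placed in an intron of a coding transcript, 58 were in introns over 1000 bp and 16 in first introns. After the strongest, the site in the second intron of cmk-1, a calcium- and calmodulin-dependent protein kinase I, had 145 in replicate 1 and 95.7 in replicate 2. Intron 5 of unc-104, which encodes a kinesin that carries synaptic vesicle precursors, had 90.7 and 95.4. The second intron of mdt-26, a Mediator subunit, had 124 and 52.4, and the first of Y105C5A.15 had 107 and 58.4. All were in the list of replicate 1, and all but mdt-26 in that of replicate 2. The cmk-1 site is shown for the unit repeated within it, and mdt-26 beside it as single-copy sequence; neither holds a box match.
cmk-1 site (chrIV:1831325-1831425, plus strand): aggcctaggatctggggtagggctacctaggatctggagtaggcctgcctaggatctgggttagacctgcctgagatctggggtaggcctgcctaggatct
mdt-26 site (chrII:5661761-5661861, plus strand): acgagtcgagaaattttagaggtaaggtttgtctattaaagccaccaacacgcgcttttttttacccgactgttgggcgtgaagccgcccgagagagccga

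The class at 3′ ends is bounded by its 500 bp window. Sites past the end lay at a median of 159 bp, and those in a 3′ UTR at a median of 100 bp before it. Of the 55 past an end, 28 were between convergent genes and 27 between genes of the same strand. Over all 17100 gaps between protein-coding genes, 2727 were convergent. The class itself favours convergent gaps, which have a gene end on either side, and divergent gaps have none. The count of 28 is therefore not read as a preference. The strongest after C46C2.7 was 326 bp past alh-3, of the aldehyde dehydrogenase family, beside the microRNA gene mir-51, with 94.5 in replicate 1 and 82.3 in replicate 2. It was followed by vab-19, which helps hold the epidermis to muscle (99.9 and 82), and by F09E5.7 (85.6 and 97.2), both in each replicate's list. The strongest in a 3′ UTR, 13 bp before the end of klp-7, a microtubule-depolymerising kinesin, had 102 and 38.2 and was in the list of replicate 1 alone. The alh-3 and vab-19 sites are shown as sequence whose 25-letter words occur once by their median, although 62.4% of the vab-19 stretch is soft-masked, with the B box pattern in capitals where present.
alh-3 site (chrIV:11026146-11026246, minus strand): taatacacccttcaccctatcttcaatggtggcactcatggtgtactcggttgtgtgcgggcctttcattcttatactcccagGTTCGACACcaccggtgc
vab-19 site (chrII:2451174-2451274, plus strand): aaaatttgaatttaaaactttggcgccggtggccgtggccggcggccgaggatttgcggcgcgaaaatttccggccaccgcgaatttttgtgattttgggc

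Exon sites were the weakest class and the one least often in the replicates' own lists, with 1 exception. The dos-3 site, in the last of 11 exons of a gene for a DOS-motif protein of the Notch pathway, had a signal of 164, with 88.7 in replicate 1 and 67.7 in replicate 2. It was the only exon site in both replicate lists, and the next exon site reached 99.4.
dos-3 site (chrIII:835915-836015, plus strand): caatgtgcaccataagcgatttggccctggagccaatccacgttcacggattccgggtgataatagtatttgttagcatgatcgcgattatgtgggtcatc
That next site was in col-43, a cuticle collagen (49.7 and 47), and was followed by srt-47, a chemoreceptor-family gene (67.5 and 39.7), Y45G12B.3 (48.6 and 50.5) and plin-1, a lipid droplet perilipin (46 and 43.1). Of these 4, srt-47 was in the list of replicate 1 and none in that of replicate 2. The exons, counted with any UTR part, had a median length of 382 bp. All coding exon parts, without UTR and including those in promoter windows, had a median of 144.0 bp, or 251 bp weighted by length. The 2 lengths are therefore not measured alike. Of the 75 sites, 23 were in last exons. None was in a first exon, which promoter windows mostly cover. Repeats were few: 3 of 75 exon sites had repeated 25-letter words, against 43 of 109 distal sites, and none was in a family.

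**Figure D5:**
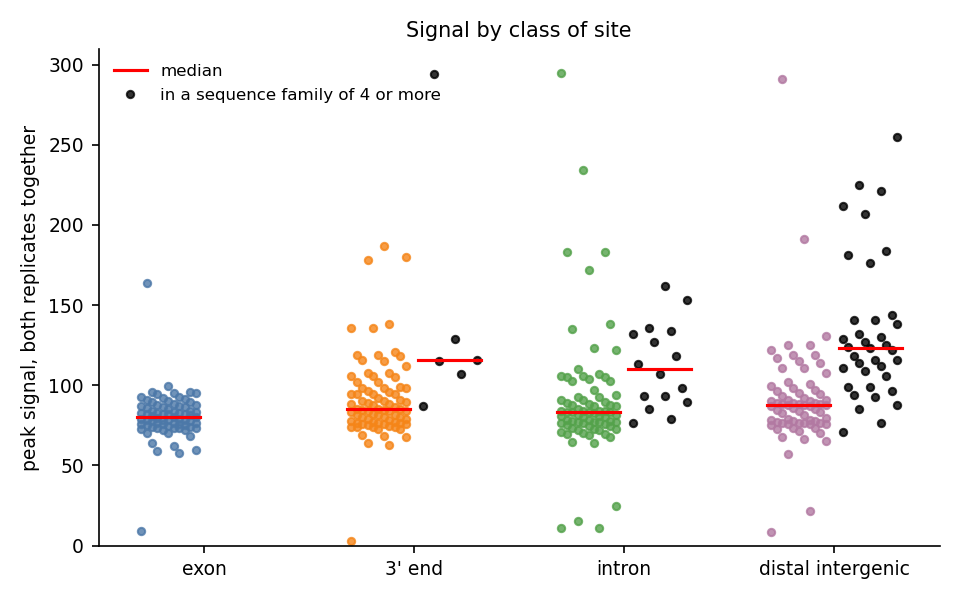
Pooled signal of each site by class, with 1 point per site; black points belong to the sequence families, and red lines are medians. In the distal class the family members have the higher median, and exons hold 1 site above 100.

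The strongest of all 366 sites, at 295, was in an intron of ints-8, an Integrator complex subunit, where the gene rpr-1 for the RNA of RNase P is annotated. It had 162 in replicate 1 and 132 in replicate 2. Annotated noncoding genes outside the 4 excluded types lay within 200 bp of 45 sites, with a median signal of 88.2. They were ncRNA genes at 25 sites, pseudogenes at 15, piRNA genes at 4, microRNA genes at 3 and a lincRNA gene at 1, and some sites had more than 1 type. Among the ncRNA genes were 2 for signal recognition particle RNA, srpr-1.2 in an intron of ckb-2 (signal 87.1) and srpr-2.1 past ZC155.4 (86.5), and tts-1 near F09E10.1 (108). Of the microRNAs, mir-35 to mir-38 lie together at the site in Y62F5A.9 (84.1), mir-4812 at the one in piki-1 (87.3) and mir-51 past alh-3. Of the tRNA pseudogenes in RefSeq, 4 were within 200 bp of a site, at unc-104, nhr-277, nipa-1 and F23G4.1, and without those sites 362 remain.

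The sites were assigned to 347 of 19973 protein-coding genes (1.74%). Among the gene lists, that for germline and meiosis had a site at 11 of 198 genes (5.56%). Of its 11 sites 7 were at 3′ ends: the strongest was at par-5, a 14-3-3 protein of embryonic polarity (82.7 in replicate 1 and 40.3 in replicate 2), with cbd-1 (53 and 57.3), air-1, an Aurora kinase (52.4 and 44.1), cgh-1, a germ granule helicase (60.1 and 35.1), egg-4, puf-3 and puf-11. In coding exons were pgl-1 and glh-1, both germ granule components, and par-2, at pooled signals of 74.9 to 80.7. Of the cytoskeleton list 7 of 86 genes (8.14%) had a site, 5 at 3′ ends, among them the kinesins klp-7, klp-18 and klp-19. Pooled signals were 77.1 at klp-18 and 75.7 at klp-19, neither in a replicate's list.

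Cuticle collagens had 4 of 175 genes (2.29%), 3 of them in exons, and cytosolic ribosomal proteins 3 of 78 (3.85%), at rpl-7A (108), rps-6 (105) and rps-2 (88). Adhesion and guidance genes had 5 of 107 (4.67%), led by the 3′ UTR of zig-11 (115), an immunoglobulin-domain gene. Chemoreceptors had 14 of 1365 (1.03%), below the share over all genes, with the family C site at srv-14 (207) the strongest. Nuclear hormone receptors had 3 of 274 (1.09%) and ion channels and transmitter receptors 2 of 303 (0.66%). None of 72 histone genes, 92 homeobox genes and 68 chaperone and heat shock protein genes had a site. F-box genes had 2 of 327 (0.612%), C-type lectins 2 of 240 (0.833%), and RNA polymerase and transcription machinery 2 of 131 (1.53%), ints-8 and mdt-26. The strongest sites of the remaining regulatory lists were at klf-1 (86, 2 of 49 zinc finger and GATA factors), zip-11 (129, 2 of 63 bHLH and bZIP factors), set-8 (88.6, 4 of 137 chromatin regulators), mom-1 (93.9, 1 of 100 signalling genes), rsp-3 (87.8, 2 of 122 splicing factors) and hrde-1 (78.4, 2 of 88 small RNA pathway genes). Those of the others were at nlp-1 (109, 2 of 144 neuropeptide and insulin genes) and gst-11 (98.1, 1 of 223 detoxification genes). Further ones were at lips-10 (135, 5 of 155 lipid and sugar enzymes) and vit-2 (72.3, 1 of 6 vitellogenins). The list named muscle structure had a site at 2 of 60 genes, the strongest 9856 bp from the 5′ end of act-5 (75.6). Lists were drawn by gene symbol, so these are counts, and nothing is read from a list's name.

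A run of 8 sites stood in 14563 bp of chromosome I, with no other conservative peak between. In trp-4 were 6 of them (3 in coding exons and 3 in introns) and in clec-111 2. Of the intronic sites in trp-4, 2 were overlapping peaks in the same intron of 990 bp, with pooled signals of 69.8 and 24.8. The stronger had a ranked peak at its summit in replicate 1 alone, the weaker in replicate 2 alone. Trp-4 encodes a TRPN mechanosensory channel and clec-111 a C-type lectin. Signals ran from 24.8 to 103, and 1 of the 8, in the first intron of clec-111, was in a replicate's list, that of replicate 2 (45.6 in replicate 1 and 54.8 in replicate 2). The sequence there was single-copy by 25-letter words. Elsewhere, mod-5, the serotonin transporter, had 2 intronic sites (98.4 and 83.6 pooled), as did tir-1, a SARM family adaptor (87.7 and 85.3), and tos-1 (105 and 92.8). An exon and the end of mak-1, a kinase, held 1 each (89.3 and 88.4), as did an exon and an intron of dyf-19 (63.9 and 80.2). Past W05F2.3 were 2 more (106 and 76.3). The pairs in lin-66, W06H8.6, F14F7.5 and at F39G3.3 each joined a site of 70.5 to 88.2 with one of 2.78 to 15.2. Among distal sites, 3 genes were the nearest to 2 sites each: ckr-2 (127 and 112, both family F), R07H5.16 (125 in no family and 123 in family E) and W05H9.4 (89 and 21.6). In all, 8 sites had a signal under 30, each within 214 bp of another conservative summit.

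At the edges of the rule, 17 sites lay within 100 bp outside a promoter window and 20 promoter peaks within 100 bp inside one. Nearly all sites had the standard width of 276 bp, and the 5 narrower ones, at ints-8, C46C2.7, K08F11.1, T26G10.1 and mdt-26, were among the strongest (183 to 295). No ranked peak lay at the summit of 10 sites in replicate 1 and 20 in replicate 2.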

How the data were processed

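Each of 8 deposited peak lists on ce11 was made by the authors from alignments of 1 replicate or of both, as ranked or thresholded by IDR, a measure of rank agreement between paired peak calls, per the deposited README texts. For the aligner, peak caller and duplicate handling, names were not given in the sources used here. Column 7 is the signal of a peak from the authors' peak calling, of unstated scale, used only to rank and describe peaks within a list. The authors' ranked lists carry the −log10 of the IDR beside each peak, and every site here had a global IDR of at most 0.01.

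Sites came from the conservative list of the series. Genes were from Ensembl release 115, with 5′ ends of all transcripts of protein-coding genes, and classes were taken in the order coding or 5′ UTR exon, 3′ UTR, intron, 500 bp past a 3′ end, distal. The 2 replicates' ranked lists gave values where a peak held the summit. Replicate lists alone are also thresholded by IDR, and overlap is 1 base or more. Family words of 16 letters needed 7 distinct 3-letter words. Intervals are exact binomial (Clopper-Pearson), 95%, over peaks. No test was run. All 26 known-answer checks of the scripts on simulated data were met. Python 3.11.15, numpy 2.4.6, scipy 1.17.1 and matplotlib 3.10.9 were used.

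The sites and gene lists were chosen with earlier results of these data known, and the families, boxes and open-sequence densities after the data were seen. Named genes were those of the 5 strongest sites per class, genes that host 2 or more sites in an exon or intron or at their 3′ end, and the strongest of each list. Others were named for a sequence, a neighbouring noncoding gene or a chosen count after their values were seen. Alternatives were other peak lists, windows, class orders and summit positions.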

Additional observations from a re-analysis of the deposited data

How the results depend on the processing

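Of 136 values recomputed under alternatives, 109 stayed within the interval of the value reported (for the number of sites, within 1.5 times) and 27 did not. No value carries a sign or a test, but the order of the classes turned: without the families distal sites went from the largest class to the smallest (3′ ends 26.7%, introns 25.4%, exons 24.4%, distal 23.5%). An IDR limit of 0.001 left 63 sites: 1.59% exonic, 52.4% distal, 88.9% and 71.4% in the lists of replicates 1 and 2, 11.1% with GGTTCGA and 17.5% with AGTGGTT. Each replicate's list alone (without the other) gave 65 to 129 sites, with 4.62 to 9.3% in exons, 22.5 to 30.8% in introns, 20 to 29.5% at 3′ ends, 38.8 to 44.6% distal, 6.98 to 10.8% with GGTTCGA and 12.4 to 15.4% with AGTGGTT. The median signal percentile of the sites, taken within each list, was 36.9 to 42.7 there. In the conservative list it was 36.5, against 44.5 for promoter peaks and 64.4 for tRNA gene peaks. A 3′ end window of 200 bp gave 17.5% at 3′ ends and 36.3% distal, by construction. Chosen after seeing the data, leaving out the 59 family members also gave a percentile of 30.3, 18.2% and 9.45% in the replicate lists and 0.651% with AGTGGTT. Shared words of 20 letters put 50 sites in families, and of 14 letters 89. The causes were not tested. Limits are that both replicates belong to 1 group, that depth is unknown, that no background sample was analysed, that read placement among repeats is not given, and that signal has no stated scale. No paired analysis was possible because there is 1 group.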

Other observations

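The share of sites in the central part of the chromosomes differed by class. The central part of each chromosome (from 25 to 75% of its length) held 47% of the 366 sites, 60.2% of those at 3′ ends, 48% in exons, 45.9% in distal sequence and 35.1% in introns. It held 57.5% of promoter peaks, 52% of tRNA gene peaks and 53% of the whole list. How much of the open sequence of each class lies there was not measured. Median GC of the central 101 bases was 48.5% in exons and introns, 47.5% at distal sites and 40.6% at 3′ ends, where 3′ UTR sites had 35.6% and sites past the end 43.6%.

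Words of 7 letters, ranked by how much their share at the summits exceeded that in windows 500 bp away, differed between classes. Outside the families the first was CGCCGGC, at 11 of 307 sites (3.58%) and 0.163% of flanking windows. In promoter peaks CGAAAAG came first, at 42 of 358 (11.7%) and 3.07% of flanking windows. At 3′ ends it was AAAATTT, at 16 of 88 (18.2%) and 9.66%, and in exons AGATCAA, at 8 of 75 (10.7%) and 0.667%. The words were picked by these same values and carry no test.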
